A study of Sus scrofa with 30 samples.

Results

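Between Day 8 and Day 12, transcripts of the lipid-carrying plasma proteins APOA1, APOE and APOM rose as a share of whole pig embryo RNA. Those of the endocytic receptor megalin fell. The transcript of the lipid transfer protein MTTP also rose, but that call was lost without the Day 12 female d12_f_297. The values below follow 10 listed genes, namely 6 apolipoprotein genes (APOA1, APOA2, APOB, APOC3, APOE and APOM), MTTP, and the nutrient receptor genes LRP2, CUBN and AMN. They were listed by symbol as functions of yolk sac endoderm. Of the 10 symbols, 9 were found by NCBI gene identifier among the 13103 genes counted in all embryos, and CUBN was not analysed here.

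Apolipoproteins are the protein part of lipoproteins, the particles that carry triglyceride and cholesterol outside cells. Apolipoprotein B is the scaffold of the large triglyceride-rich particles, and the microsomal triglyceride transfer protein encoded by MTTP loads it with lipid while it is being made. Megalin, encoded by LRP2, and its partner cubilin, which needs the amnionless protein encoded by AMN to reach the cell surface, take up proteins, vitamin carriers and lipoproteins from the fluid on the apical side of absorptive epithelia. Before a placenta is established, the extraembryonic endoderm that lines the mammalian yolk sac is known both to secrete lipoproteins and to absorb nutrients through these receptors. This endoderm derives from the hypoblast, the layer that spreads beneath the trophectoderm of the blastocyst.

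The samples were 30 single embryos whose RNA was sequenced, 10 from each of Days 8, 10 and 12 after insemination, and on each day 5 were female and 5 male. All embryos came from German Landrace × Pietrain gilts whose cycles had been synchronized with Altrenogest, PMSG and human chorion gonadotropin before insemination with sperm of a single boar. They were flushed from the uterus of gilts slaughtered on that day. Each library held a whole embryo with its embryonic disc and trophectoderm, so no cell layer was sampled alone. Embryos of both sexes were taken from the same litters, but the gilt of each embryo is not in the labels. Littermates could therefore not be told apart from embryos of different gilts, and the p-values treat all embryos as independent. Total counts ran from 6068212 in the Day 12 female d12_f_245 to 34002508, with a median of 22202723. Levels are given as CPM, the counts scaled to library size with TMM factors.

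Hypoblast RNA in the whole embryos was looked for with a list of hypoblast markers, 10 of which were in the table. Their summed level ran from 586 to 988 CPM on Day 8, from 464 to 891 CPM on Day 10 and from 1009 to 4482 CPM on Day 12. The basement membrane gene COL4A1 supplied much of these sums, with a median of 320 CPM on Day 8 and of 1133 CPM on Day 12. The defining regulators GATA4, GATA6 and SOX17 were above 3 counts in all 30 embryos. Other markers of this list went down, HHEX from a median of 2.01 CPM on Day 8 to 0.166 CPM on Day 12. RSPO3 went from 6.63 to 0.144 CPM between those days. The sums are thus no measure of hypoblast content. The summed level of 12 trophectoderm markers, led by the keratins KRT8 and KRT18, had medians of 24724, 44725 and 14165 CPM on Days 8, 10 and 12. Fewer cells of a layer and less RNA per cell cannot be told apart in whole embryos, and the part of these shifts in the changes described next was not tested.

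In the Sscrofa11.1 assembly, APOA1 (397691) lies on chromosome 9 from 44216481 to 44218360 and APOC3 (406187) on the same chromosome from 44211171 to 44213538. Only 2943 bp separate the end of APOC3 from the start of APOA1. APOA2 (100153243) spans 89237514 to 89239126 on chromosome 4, and APOB (100523371) spans 117250096 to 117316200 on chromosome 3. APOE (397576) lies on chromosome 6 from 51373113 to 51375333, and APOM (692188) on chromosome 7 from 23768974 to 23773324. MTTP (397381) occupies 120820660 to 120871468 on chromosome 8 and LRP2 (100519689) 75565299 to 75754604 on chromosome 15. AMN (100157003) is on a scaffold that is not placed on a chromosome. No annotated gene overlapped any of the 8 placed genes.

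**Figure D1:**
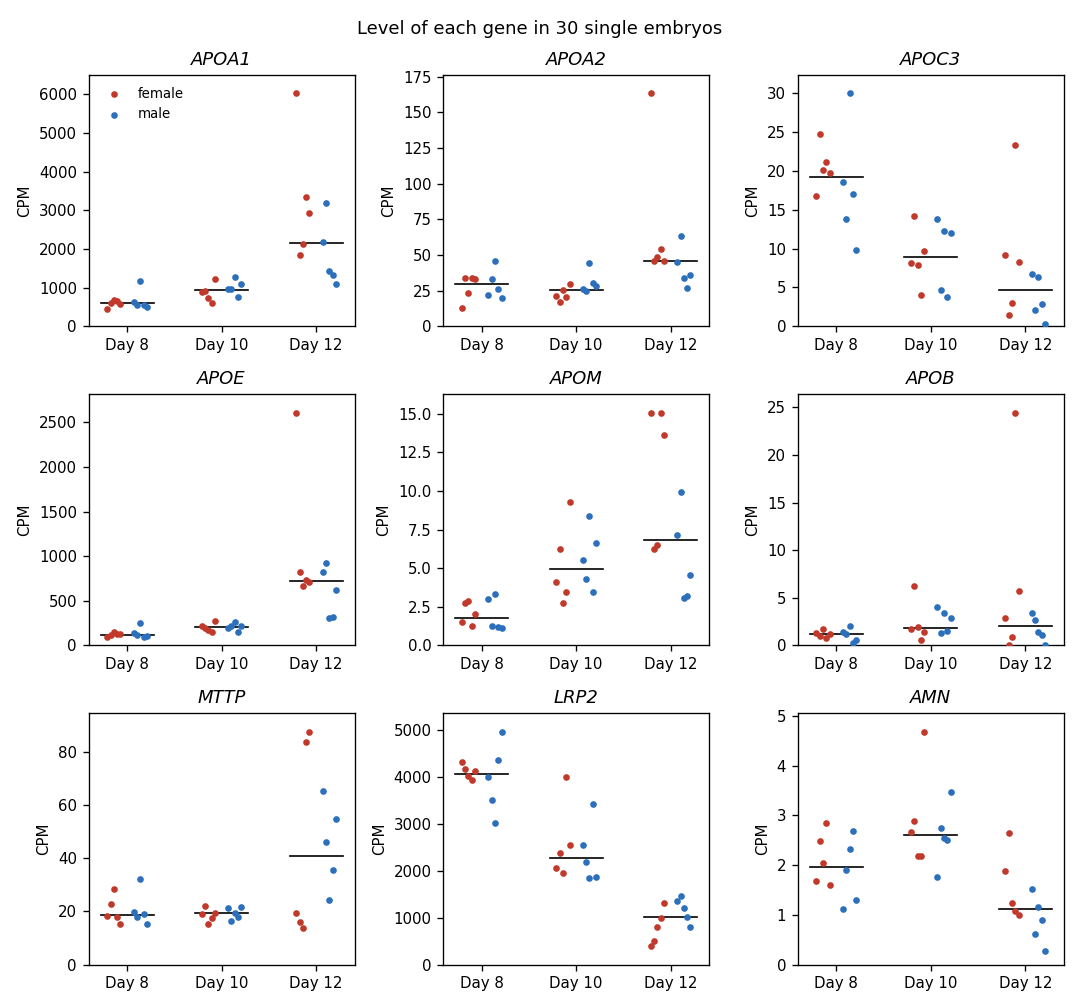
Level of each of the 9 genes (vertical axes, CPM, each gene on its own scale from 0) in 10 embryos on each of Days 8, 10 and 12 (horizontal axes). Each point is an embryo, red for female and blue for male, and the line is the median of the day. APOE rises and LRP2 falls so far that the Day 12 embryos lie apart from those of the other days, whereas APOB stays below 7 CPM except for 1 Day 12 female at 24.4 CPM.

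The transcript of the particle scaffold varied more between embryos than between days, and that of its loading factor rose on Day 12. APOB ran from 0.258 CPM to 2.07 CPM on Day 8 with a median of 1.14 CPM. On Day 10 the lowest, median and highest levels were 0.591, 1.81 and 6.22 CPM. On Day 12 they were 0, 2.07 and 24.4 CPM. Thus the medians of the 3 days lay close together while the range widened, and the days overlapped. The embryos d12_f_271 and d12_m_307 had no APOB count, which allows up to 0.180 CPM and 0.116 CPM in their libraries (3 counts, counting error only), whereas d12_f_297 held 791 counts. Neither step passed the test, with log2 fold changes of 1.15 ± 0.66 (SE) from Day 8 to Day 10 (edgeR quasi-likelihood test with Benjamini-Hochberg adjustment, adjusted p = 0.135) and 0.78 ± 0.63 from Day 10 to Day 12 (adjusted p = 0.295). Without d12_f_297 the second value was -0.33 (adjusted p = 0.631), so its sign rested on that embryo.

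MTTP encodes the transfer protein that lipidates apolipoprotein B. On the first 2 days its levels overlapped, with 15.1, 18.7 and 32.2 CPM as the lowest, median and highest values on Day 8 and 15.1, 19.2 and 21.9 CPM on Day 10. On Day 12 the level ran from 13.8 CPM to 87.4 CPM with a median of 40.9 CPM. Most Day 12 embryos were above every Day 10 embryo, but the 3 females d12_f_245, d12_f_271 and d12_f_289 stayed between 13.8 and 19.5 CPM. MTTP rose 2.36-fold from Day 10 to Day 12 (log2 fold change 1.24 ± 0.26, adjusted p = 0.000109), and the change from Day 8 to Day 10 was -0.12 ± 0.25 on the log2 scale (adjusted p = 0.695). From Day 8 to Day 12 it rose by a log2 fold change of 1.12 ± 0.25 (adjusted p = 0.000253), a call that was lost without d12_f_297 (0.97, adjusted p = 0.000905) because the change had to pass 1.

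APOA1 and APOA2, genes of high-density particles, were called higher on Day 12 than on Day 10, the call of APOA2 being lost without d12_f_245. APOC3, the neighbour of APOA1, was not called in that step. APOA1 encodes the chief protein of high-density lipoprotein and the activator of the enzyme that esterifies plasma cholesterol. Its lowest, median and highest levels were 446, 590.1 and 1175 CPM on Day 8, 608, 935 and 1264 CPM on Day 10, and 1102, 2154 and 6027 CPM on Day 12. The Day 12 embryos mostly lay above all embryos of Day 10, with the male d12_m_307 at 1102 CPM inside the Day 10 range and the female d12_f_245 far above the rest. APOA1 rose 2.72-fold from Day 10 to Day 12 (log2 fold change 1.44 ± 0.23, adjusted p = 2.68e-06). The change from Day 8 to Day 10 was 0.56 ± 0.23 (adjusted p = 0.0358), which missed the threshold for a call between days, an FDR (the adjusted p) under 0.001 with a log2 fold change beyond 1. Without d12_f_245 the Day 12 rise was 1.21 (adjusted p = 3.36e-06).

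APOA2 encodes another protein of high-density lipoprotein, and it was called in the later step alone. On Day 8 it ran from 13.0 CPM to 45.8 CPM with a median of 29.5 CPM, and on Day 10 from 16.6 CPM to 44.0 CPM with a median of 25.7 CPM. On Day 12 the lowest level was 26.5 CPM, the median 45.8 CPM and the highest 163 CPM. All 3 days overlapped, and 9 of the 10 Day 12 embryos lay at or below 63.1 CPM. The change from Day 8 to Day 10 was -0.08 ± 0.25 on the log2 scale (adjusted p = 0.800), and that from Day 10 to Day 12 was 1.06 ± 0.25 (adjusted p = 0.000474), a 2.09-fold rise. This call rested on d12_f_245, the embryo at 163 CPM, since without it the value was 0.73 (adjusted p = 0.00117).

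APOC3 encodes a small apolipoprotein that slows lipolysis and clearance of triglyceride-rich particles. Its median stepped down on each day, with 9.88, 19.2 and 30.01 CPM as lowest, median and highest values on Day 8, 3.70, 8.96 and 14.1 CPM on Day 10, and 0.271, 4.62 and 23.3 CPM on Day 12. The Day 10 range reached into the lower part of the Day 8 range, and the Day 12 embryos spanned 86.0-fold, from 7 counts in d12_m_307 to 754 in d12_f_297. Neither step was called, at -1.09 ± 0.42 (adjusted p = 0.0269) and -0.51 ± 0.42 (adjusted p = 0.301) on the log2 scale. Over both steps the value was -1.60 ± 0.42 (adjusted p = 0.00125), just short of the threshold, and without d12_f_297 it was -2.14 (adjusted p = 1.33e-05), a called fall.

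**Figure D2:**
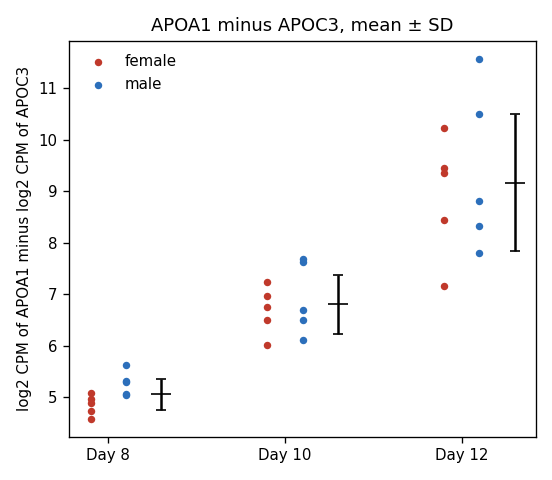
Log2 CPM of APOA1 minus log2 CPM of APOC3 (vertical axis, with a prior count of 2 in each, not starting at 0) in each embryo on Days 8, 10 and 12 (horizontal axis), red for female and blue for male, with the mean and SD of the 10 embryos of a day beside them. The means step from 5.05 to 6.80 to 9.17, and the Day 8 embryos lie below all later embryos.

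The neighbouring genes APOA1 and APOC3 differed in the course of their levels. The log2 CPM of APOA1 (with a prior count of 2) minus that of APOC3 was 5.05 ± 0.30 (SD, n = 10) on Day 8, 6.80 ± 0.57 on Day 10 and 9.17 ± 1.34 on Day 12, as the plot of this difference shows. It ran from 4.58 to 5.63, from 6.0 to 7.67 and from 7.16 to 11.58, so that Days 8 and 10 did not overlap while Days 10 and 12 did. This difference was chosen after the values were seen and was given no test. The prior count lowers it where APOC3 has few counts, as in d12_m_307.

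APOE rose on Day 12 and APOM on Day 10. Apolipoprotein E is the ligand by which remnant particles bind receptors of the LDL receptor family. Its lowest, median and highest levels were 95.1, 120 and 250 CPM on Day 8, 148, 204 and 278 CPM on Day 10, and 304, 725 and 2610 CPM on Day 12. Every Day 12 embryo was above every embryo of the other days, whereas Days 8 and 10 overlapped. APOE rose 4.17-fold from Day 10 to Day 12 (log2 fold change 2.06 ± 0.27, adjusted p = 6.78e-08) and by 0.65 ± 0.26 from Day 8 to Day 10, which was not called (adjusted p = 0.0320). Without d12_f_245, the embryo at 2610 CPM, the rise on Day 12 was 1.69 (adjusted p = 7.08e-09).

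APOM encodes a lipocalin on high-density particles that carries sphingosine 1-phosphate and needs megalin for its recapture in the kidney. It was low on every day, with 1.11, 1.77 and 3.30 CPM as lowest, median and highest levels on Day 8, 2.72, 4.92 and 9.31 CPM on Day 10, and 3.04, 6.84 and 15.1 CPM on Day 12. APOM alone among the 9 genes was called from Day 8 to Day 10, with a 2.66-fold rise (log2 fold change 1.41 ± 0.31, adjusted p = 0.000251). The next step was 0.63 ± 0.30 on the log2 scale and did not pass (adjusted p = 0.0653), with 3 Day 12 females between 13.7 and 15.1 CPM and the other 7 embryos at or below 9.93 CPM. Within the males alone the second step was -0.023.

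The receptor genes LRP2 and AMN were called lower on Day 12 than on Day 10. LRP2, which encodes megalin, had 3028, 4071 and 4965 CPM as lowest, median and highest levels on Day 8, 1851, 2277 and 3999 CPM on Day 10, and 385, 1011 and 1456 CPM on Day 12. All 10 Day 12 embryos lay below every embryo of Days 8 and 10. Days 8 and 10 overlapped only through d10_f_433 at 3999 CPM and d10_m_435 at 3433 CPM, the next highest Day 10 embryo being at 2553 CPM. LRP2 was 2.51-fold lower on Day 12 than on Day 10 (log2 fold change -1.33 ± 0.18, adjusted p = 2.40e-07). The step from Day 8 to Day 10 was -0.70 ± 0.18 (adjusted p = 0.00151) and was not called, and over both steps LRP2 fell by 2.03 on the log2 scale (adjusted p = 4.49e-11). The lowest embryo, d12_f_245, held 2663 LRP2 counts.

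AMN, the membrane anchor and escort of cubilin, was close to the lower end of detection. Its lowest, median and highest levels were 1.12, 1.97 and 2.85 CPM on Day 8, 1.76, 2.61 and 4.68 CPM on Day 10, and 0.271, 1.11 and 2.64 CPM on Day 12, from 7 to 96 counts per embryo over Days 10 and 12. The 3 days overlapped. AMN was 2.29-fold lower on Day 12 than on Day 10 (log2 fold change -1.19 ± 0.26, adjusted p = 0.000252), and it did not pass from Day 8 to Day 10 (0.47 ± 0.26, adjusted p = 0.118). With library size alone as the scaling, the log2 fold change on Day 12 was -0.996 (adjusted p = 0.00118) and the call was lost. From Day 8 to Day 12, with TMM scaling, the log2 fold change of AMN was -0.72 ± 0.26 and was not called (adjusted p = 0.0148).

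**Figure D3:**
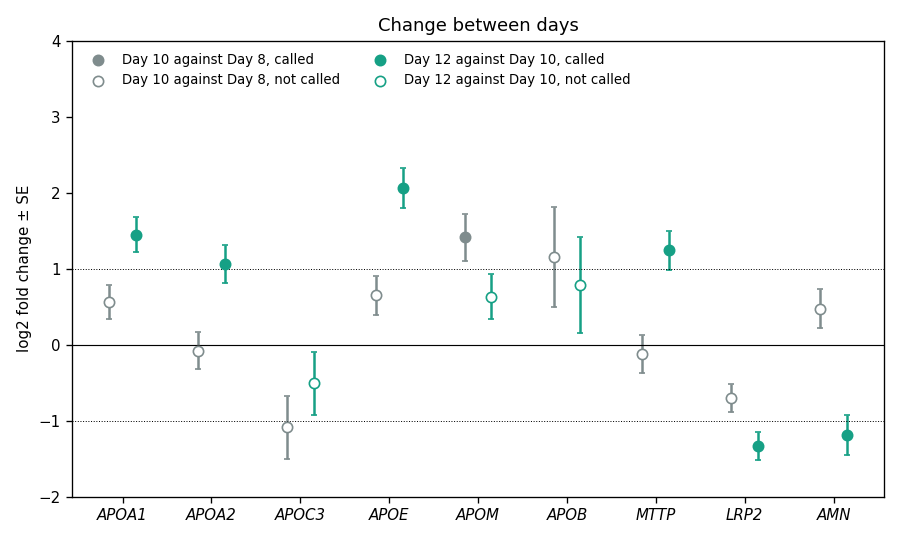
Log2 fold change ± SE of the 9 genes (horizontal axis) from Day 8 to Day 10 (grey) and from Day 10 to Day 12 (green), 10 embryos a day, with filled points for called changes and dotted lines at a log2 fold change of 1 in either direction. Only APOM is called in the first step, and APOA1, APOA2, APOE and MTTP (higher) and LRP2 and AMN (lower) in the second.

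From Day 8 to Day 10, 1 of the 9 genes was called, against 14.1% of all 13103 genes, as the plot of fold changes shows. It was a higher call, of which all genes had 9.88% (1295), and none was a lower call, of which they had 4.2% (550). Scaling by library size alone called none of the 9, moved the median log2 fold change of all genes by -0.18, and split the calls over all genes into 1027 higher and 811 lower. From Day 10 to Day 12, 4 of the 9 were called higher and 2 lower, together 6 against 23.3% of all genes. For higher calls the background was 14.9% and for lower calls 8.39%. Over both steps, from Day 8 to Day 12, 4 were called higher (APOA1, APOE, APOM and MTTP) and LRP2 lower, 5 of 9 against 32.5% of all genes (22.0% higher and 10.4% lower). This last comparison shares its embryos with the other 2 and is no separate evidence. The embryos of Days 10 and 12 did not overlap for APOE and LRP2, 2 of 9 genes against 16.6% of all genes, and none of the 9 was without overlap between Days 8 and 10, against 22.0%. From Day 8 to Day 12 the same 2 genes were without overlap, against 31.7%. The median log2 fold change of the 9 genes was 0.47 in the first step and 0.78 in the second, against 0.029 and 0.043 over all genes. Leaving out d12_f_245 gave 5 calls from Day 10 to Day 12, leaving out d12_f_297 gave 6, and leaving out d08_m_121 left 1 call from Day 8 to Day 10.

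**Figure D4:**
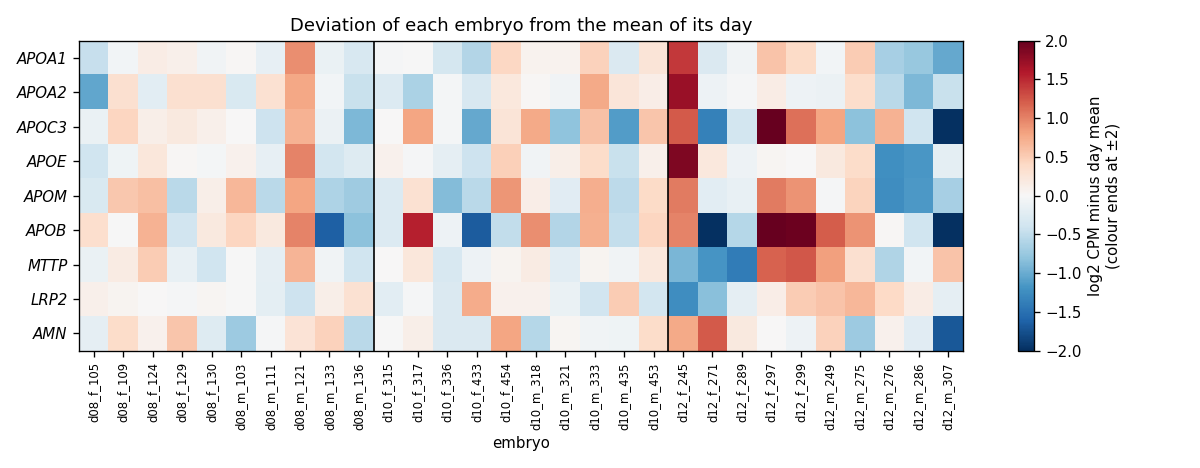
Deviation of each embryo (columns, ordered by day and sex) from the mean of its day in log2 CPM for the 9 genes (rows), red above and blue below the mean, with colours ending at 2 in either direction and black lines between days. The column of d08_m_121 is red for 7 apolipoprotein and MTTP rows and blue for LRP2, and the Day 12 columns are the most strongly coloured, above all for APOB and APOC3.

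Embryos of the same day differed from each other along these genes, which the map of deviations displays. The Day 8 male d08_m_121 had the highest level of its day for APOA1, APOA2, APOB, APOC3, APOE, APOM and MTTP, 7 of the 9 genes, and the lowest for LRP2. The same embryo had the highest hypoblast marker sum of Day 8, at 988 CPM, the highest epiblast marker sum, at 564 CPM, and the smallest library of that day, at 14882265 counts. On Day 12, d12_f_245 was highest for APOA1, APOA2 and APOE and lowest for LRP2, at a hypoblast sum of 2083 CPM that ranked 5 of 10 and the lowest epiblast sum of the day, 536 CPM. DNMT3B supplied much of the epiblast sums, with medians of 303 CPM on Day 8 and 754 CPM on Day 12. The sums themselves had medians of 474 CPM and 947 CPM on those days, so they are no measure of epiblast content. The embryo d12_f_297 was highest for APOB, APOC3 and APOM, and its hypoblast sum of 3326 CPM ranked 2 of 10. The male d12_m_275 had the highest hypoblast sum of Day 12, at 4482 CPM, with APOB at 2.70 CPM and APOC3 at 2.12 CPM. The lowest sum of that day, 1009 CPM, was that of d12_f_271, which had 0 APOB counts. The part of cell makeup and of library size in these differences was not tested. The SD of log2 CPM on Day 12 was 2.52 for APOB and 1.67 for APOC3, more than that of 99.8% and 98.8% of all genes, whose median SD was 0.45. These shares are over genes of every level. For the embryos without an APOB count, log2 CPM was set by the prior count of 2. MTTP on Day 10, with an SD of 0.18, was narrower than most genes, since only 22.7% of all genes varied less.

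Within a day, some of these transcripts varied together over the 10 embryos. Of 18 correlations of chosen pairs, 3 passed by Pearson's r at a Benjamini-Hochberg adjusted p under 0.05, and these 3 were on Day 12. The share of all gene pairs with an r as high on a day was not computed. The values are therefore not shown to be particular to these genes. APOA1 and APOA2 were correlated with Pearson's r = 0.90 (permutation test with 100000 resamples, two-sided, adjusted p = 0.00189) and Spearman's rho = 0.85 (permutation, adjusted p = 0.0269). Without d12_f_245 and d12_m_307, the 2 embryos farthest from the median of APOA1, r was 0.89 (adjusted p = 0.0239). APOB and HNF4A, which encodes a nuclear receptor that drives lipoprotein genes in liver, gave r = 0.91 (permutation test, adjusted p = 0.00189) and rho = 0.83 (permutation, adjusted p = 0.0292). Without d12_f_271 and d12_m_307, the 2 embryos at 0 APOB counts, r was 0.71 and no longer passed (adjusted p = 0.132). LRP2 and the endocytic adaptor gene DAB2 gave r = 0.81 (permutation test, adjusted p = 0.0309) and rho = 0.64 (permutation, adjusted p = 0.107), but r = 0.23 (adjusted p = 0.737) without d12_f_245 and d12_f_271, on which the relation therefore rests. The other 15 relations did not pass by r. APOA1 and APOC3 on Day 8 passed by rank alone, with rho = 0.85 (permutation, adjusted p = 0.0269) and r = 0.74 (permutation, adjusted p = 0.0908).

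Further pairs were looked at after the values had been seen and are given as descriptions over the 10 embryos of a day, which share their libraries. APOA1 and APOE had r = 0.97, 0.92 and 0.82 on Days 8, 10 and 12, with rho = 0.94, 0.84 and 0.76. APOB and APOC3 had r = 0.50, 0.85 and 0.90 on the same days, with rho = 0.36, 0.85 and 0.88. APOA1 and HNF4A had r = 0.89, 0.83 and 0.67. LRP2 and APOA1 had r = -0.80, -0.63 and -0.27, and without the 2 embryos farthest from the median of LRP2 these were -0.27, 0.03 and 0.48.

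Female and male embryos were compared within each day, since the study asked whether the sexes differ at these stages. At an FDR under 0.05 none of the 9 genes differed on Day 8, 10 or 12 by the edgeR quasi-likelihood test, against 0.658%, 0.223% and 0.123% of the genes of those days. At an unadjusted p under 0.05 the counts were 0, 1 and 2 of 9, against 4.59%, 2.36% and 22.7% of all genes. At an FDR under 0.05, DESeq2 called none of the 9 on any day, against 1.13%, 0.454% and 1.37% of all genes, and the robust GLM of edgeR none, against 1.37%, 0.36% and 0.827%. The gene of Day 10 was APOA2, with 16.6, 20.6, 21.3, 25.1 and 29.9 CPM in the females and 24.6, 26.3, 28.2, 30.4 and 44.0 CPM in the males. The ranges overlapped, and the female over male difference was -0.45 ± 0.19 on the log2 scale (edgeR, unadjusted p = 0.0394, adjusted p = 0.99997).

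On Day 12, APOM and APOA1 had the smallest p. APOM was at 6.24, 6.51, 13.7, 15.0 and 15.1 CPM in the 5 females and at 3.04, 3.23, 4.57, 7.18 and 9.93 CPM in the 5 males. The log2 difference was 1.04 ± 0.40 (edgeR, unadjusted p = 0.0252, adjusted p = 0.198). APOA1 was at 1845, 2134, 2930.03, 3345 and 6027 CPM in the females and at 1102, 1327, 1424, 2174 and 3197 CPM in the males. Its difference was 0.86 ± 0.38 (edgeR, unadjusted p = 0.0468, adjusted p = 0.216), and without d12_f_245 it was 0.48 (adjusted p = 0.460). In a single edgeR fit of all 6 groups APOA1 passed on Day 12 (0.82, adjusted p = 0.0479), where 20.3% of all genes passed. The log2 difference was above 0 for 7 of the 9 genes on Day 12, against 49.9% of all genes, and below 0 for LRP2 (-0.53 ± 0.30, adjusted p = 0.295) and MTTP (-0.015 ± 0.54, adjusted p = 0.988). The 9 genes were measured in the same embryos and some varied together, so the 7 are not separate observations. The change between days did not differ between the sexes for any of the 9 genes at an FDR under 0.05 in the edgeR interaction test, nor for any of the 13103 genes (0%). At an unadjusted p under 0.05 the interaction passed for APOA1, APOA2 and APOM from Day 10 to Day 12, 3 of 9 against 18.9% of all genes. It passed for APOA1 and APOE from Day 8 to Day 12, 2 of 9 against 21.8%, and for none from Day 8 to Day 10, against 0.763%, and DESeq2 called none at an FDR under 0.05.

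**Figure D5:**
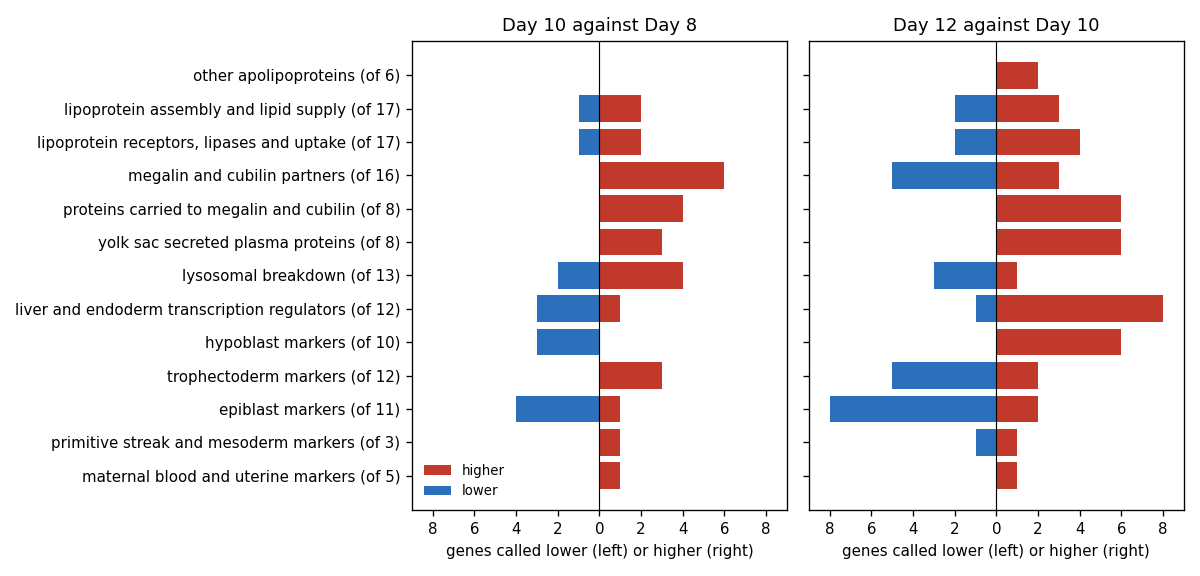
Number of genes called lower (blue, left of 0) and higher (red, right of 0) in each of 13 gene lists from Day 8 to Day 10 (left panel) and from Day 10 to Day 12 (right panel), with the number of genes tested in parentheses. The partners of megalin are called higher in 6 of 16 in the first step, and lower in 5 and higher in 3 of 16 in the second.

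The other genes of these routes were taken from lists, whose calls are drawn in the plot of gene lists. The counts of every list below stand beside the shares over all genes, which were 9.88% higher and 4.2% lower from Day 8 to Day 10 and 14.9% higher and 8.39% lower from Day 10 to Day 12. The table had been cut at a minimum CPM before deposit, so the counts cover only the listed genes that were measured. A gene low on some days was kept through the days on which it was higher. In any list the direction of the counts may thus be in part fixed by this cut. Of 13 other apolipoproteins listed, 6 were measured, of which none was called from Day 8 to Day 10 and 2 were called higher from Day 10 to Day 12. CLU, which encodes the secreted chaperone clusterin, had medians of 1.17, 2.33 and 24.3 CPM on Days 8, 10 and 12 and rose by a log2 fold change of 3.61 ± 0.40 on Day 12 (adjusted p = 2.85e-09). APOH, encoding a phospholipid-binding plasma protein, rose by 2.18 ± 0.47 (adjusted p = 0.000175) at median levels of 0.286 and 1.11 CPM.

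Calls among genes that supply lipid to lipoproteins were near the shares over all genes. Of 17 tested among 23 listed, 2 were called higher and 1 lower from Day 8 to Day 10, and 3 higher and 2 lower from Day 10 to Day 12, with list medians of 0.17 and -0.02 on the log2 scale. MOGAT1, which makes diacylglycerol from monoacylglycerol, had medians of 5.39, 106 and 22.7 CPM, rising by 3.98 ± 0.34 (adjusted p = 6.07e-11) and then falling by 2.38 (adjusted p = 1.52e-07). PRAP1, whose product aids the triglyceride transfer by MTTP, had medians of 324, 1315 and 4.54 CPM, with a rise of 2.01 ± 0.40 (adjusted p = 8.34e-05) and a fall of 6.86 on the log2 scale (adjusted p = 3.65e-13). SOAT1, which esterifies cholesterol, fell by 2.87 from Day 8 to Day 10 (adjusted p = 4.09e-08). TM6SF2, which acts in the lipidation of apolipoprotein B particles, rose by 1.60 ± 0.39 on Day 12 (adjusted p = 0.000688), and the phospholipid transfer protein gene PLTP by 1.07 ± 0.21 (adjusted p = 4.76e-05). The TM6SF2 medians were low, at 0.794 CPM on Day 10 and 1.83 CPM on Day 12.

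Among 17 tested of 23 listed genes for lipoprotein receptors, lipases and uptake, 2 were called higher and 1 lower in the first step and 4 higher and 2 lower in the second, with medians of 0.14 and 0.44 on the log2 scale. LRP1, a receptor for remnant particles bearing apolipoprotein E, had medians of 25.8, 16.1 and 91.4 CPM and rose by 2.67 ± 0.26 on Day 12 (adjusted p = 2.46e-10). ANGPTL4, an inhibitor of lipoprotein lipase, rose by 5.31 ± 0.60 (adjusted p = 4.58e-09) from a median of 0.0826 CPM to 4.4 CPM, with 6 of 10 Day 10 embryos at 3 counts or fewer. SORT1, a sorting receptor that binds apolipoprotein B, rose by 1.82 ± 0.29 from Day 8 to Day 10 (adjusted p = 3.85e-06). MYLIP, whose product sends the LDL receptor for degradation, rose by 1.38 ± 0.26 in that step (adjusted p = 3.48e-05). NPC1 and NPC2 move cholesterol out of late endosomes and lysosomes. NPC1 fell by 2.72 and then by 1.88 on the log2 scale (adjusted p = 1.86e-12 and 1.01e-09), its medians being 579, 89.2 and 26.0 CPM. NPC2 fell by 2.57 from Day 10 to Day 12 (adjusted p = 1.47e-12), with medians of 1967, 926 and 155 CPM.

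Of the partners of megalin and cubilin, DAB2, MYO6 and RAB38 had their highest medians on Day 10 and fell to Day 12. Of 16 tested among 19 listed, 6 were called higher and none lower from Day 8 to Day 10, and 3 higher and 5 lower from Day 10 to Day 12, with medians of 0.26 and -0.32 on the log2 scale. DAB2, the clathrin adaptor of megalin and also a trophectoderm marker, had medians of 850.4, 2102 and 716 CPM and rose by 1.31 ± 0.10 (adjusted p = 6.42e-12) before it fell by 1.58 (adjusted p = 2.77e-14). RAB38, a small GTPase of vesicle transport, fell by 3.36 on Day 12 (adjusted p = 7.10e-12) and the endocytic motor gene MYO6 by 1.63 (adjusted p = 3.09e-11). The medians on Days 8, 10 and 12 were 36.9, 113 and 10.3 CPM for RAB38 and 79.1, 151 and 51.3 CPM for MYO6. PDZK1, a scaffold of apical membrane proteins, rose by 2.31 ± 0.38 and by 3.50 ± 0.35 in the 2 steps (adjusted p = 5.86e-06 and 5.18e-10). MYO7B, a brush border motor gene that was called in the first step, was at 3 counts or fewer in all 10 Day 8 embryos and had a median of 0.660 CPM on Day 10, so no fold is given.

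The lists of receptor cargo and of yolk sac plasma proteins were measured only in part. AFP, ALB, TTR, AMBP and HPX, known products of yolk sac or liver, were among the genes not analysed here. Of 8 proteins carried to megalin and cubilin that were measured among 17 listed, 4 were called higher from Day 8 to Day 10 and 6 from Day 10 to Day 12, with none lower. Of 8 measured among 14 listed plasma proteins known from yolk sac, 3 and 6 were called higher and none lower. Genes such as SERPINA1 and TF were near 0 on Day 8 and reached that minimum through their later levels, so the direction of these counts is in part fixed by the filter and they are a description only. These lists share RBP4, TF and VTN. RBP4, the plasma carrier of retinol, had medians of 0.121, 11.9 and 212 CPM, with 7 of 10 Day 8 embryos at 3 counts or fewer. SELENOP, a selenium carrier that megalin binds, had medians of 2.17, 32.8 and 478 CPM and rose by 3.74 ± 0.44 on Day 12 (adjusted p = 1.30e-08). TF, for transferrin, was at 3 counts or fewer in all 10 Day 8 embryos and had a median of 3.43 CPM on Day 12, and the table holds more than 1 gene identifier with this symbol, so its counts are uncertain. AHSG, a fetal plasma glycoprotein, rose by 4.56 ± 0.53 (adjusted p = 1.01e-08) to a median of 15.6 CPM. SERPINA1, a protease inhibitor of plasma, was without a count in all Day 8 embryos and had a median of 2.89 CPM on Day 12.

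Lysosomal genes were called in both directions in each step. Of 13 tested, 4 were called higher and 2 lower in the first step, against 9.88% and 4.2% of all genes. In the second step 1 was called higher and 3 lower, against 14.9% and 8.39%. The list medians of the 2 steps were 0.57 and -0.57. CTSL, a cysteine protease, had medians of 170, 440 and 4689 CPM and rose by 3.60 ± 0.29 on Day 12 (adjusted p = 4.43e-12). CTSZ rose by 2.97 ± 0.28 (adjusted p = 3.21e-10) and then fell by 1.69 (adjusted p = 2.19e-06), and CTSB rose by 1.89 ± 0.18 in the first step (adjusted p = 4.54e-10). LGMN fell by 2.20 (adjusted p = 6.90e-13) and CTSD by 1.59 (adjusted p = 2.47e-07) from Day 8 to Day 10, both encoding lysosomal proteases. TFEB, a regulator of lysosomal genes, fell by 3.65 from Day 10 to Day 12 (adjusted p = 8.98e-17).

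Transcription regulators of liver and endoderm were called higher in 1 of 12 and lower in 3 of 12 from Day 8 to Day 10. From Day 10 to Day 12 they were called higher in 8 of 12 and lower in 1 of 12. The list medians were -0.30 and 1.81. A gene low on Days 8 and 10, such as CEBPA, can pass the minimum CPM through Day 12. The direction of these counts may thus be in part fixed by the filter. HNF4A had medians of 36.4, 34.9 and 163 CPM and rose by 2.28 ± 0.26 on Day 12 (adjusted p = 8.48e-09). CEBPA, a regulator of hepatic metabolism, rose by 7.37 ± 0.39 (adjusted p = 2.24e-16) from a median of 0.209 CPM to 31.0 CPM, with 4 of 10 Day 10 embryos at 3 counts or fewer. NR5A2, a nuclear receptor active in liver and early embryos, fell by 1.37 in the first step (adjusted p = 0.000707) and rose by 5.14 ± 0.34 in the second (adjusted p = 5.15e-14). FOXA1, a pioneer factor of endoderm, rose by 2.46 ± 0.29 in the first step (adjusted p = 2.09e-08), in which CREB3L3, a regulator of hepatic lipid genes, fell by 1.72 (adjusted p = 0.000700). Both were low, with medians on Days 8 and 10 of 0.237 and 1.42 CPM for FOXA1 and of 0.679 and 0.214 CPM for CREB3L3. PPARGC1A, a coactivator of oxidative metabolism, fell by 1.48 on Day 12 (adjusted p = 5.11e-06).

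Markers of the cell layers moved in the same intervals. Hypoblast markers were called lower in 3 of 10 and higher in none from Day 8 to Day 10, and higher in 6 of 10 from Day 10 to Day 12. PDGFRA rose by 2.52 ± 0.36 and NID2 by 2.28 ± 0.25 on Day 12 (adjusted p = 3.85e-07 and 3.70e-09), while HHEX and RSPO3 fell by 2.84 and 2.68 from Day 8 to Day 10 (adjusted p = 4.16e-06 and 4.71e-06). Their Day 10 medians were 0.304 CPM for HHEX and 0.782 CPM for RSPO3. Trophectoderm markers were called higher in 3 of 12 and then lower in 5 and higher in 2 of 12, with KRT18 falling by 2.21 on Day 12 (adjusted p = 2.40e-11), ELF5 rising by 1.84 ± 0.33 in the first step (adjusted p = 2.32e-05), and GATA3 and TFAP2A rising by 1.23 ± 0.15 and 1.04 ± 0.13 on Day 12 (adjusted p = 1.76e-08 and 2.13e-08). Epiblast markers were called lower in 4 of 11 and higher in 1, and then lower in 8 and higher in 2. Of the 11, 5 were at 3 counts or fewer in all Day 12 embryos and were kept through earlier days. The direction of the second count is therefore in part fixed by the filter. TDGF1, a coreceptor of Nodal signals, had medians of 14.2, 593 and 81.3 CPM, PRDM14 and OTX2 fell by 1.64 and 1.27 in the first step (adjusted p = 7.25e-06 and 0.000507), and NODAL, OTX2 and PRDM14 were at 3 counts or fewer in all 10 Day 12 embryos. ETV4 and DNMT3B rose by 1.56 ± 0.24 and 1.14 ± 0.12 on Day 12 (adjusted p = 1.98e-06 and 1.29e-09). Of 3 primitive streak and mesoderm markers measured, 1 was called higher in the first step, and 1 higher and 1 lower in the second. HAND1, the gene that rose in both steps, had medians of 0, 66.0 and 1064 CPM, and EOMES, the one that fell, was at 3 counts or fewer in all 10 Day 12 embryos. Of 5 maternal blood and uterine markers measured, 1 was called higher in each step, MUC4, whose median was 6.86 CPM on Day 12. From Day 8 to Day 12, 4 of these 5 markers were called higher, against 22.0% of all genes. The summed level of the 5 markers had medians of 0.751, 3.37 and 19.2 CPM on Days 8, 10 and 12. It ran up to 46.7 CPM on Day 12, when HBB was between 0.118 and 8.36 CPM. The part of cell makeup and of maternal material in the changes of the 9 genes was not tested.

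The genes whose centred log2 CPM over the 30 embryos was closest to each of the 9 were ranked by root mean square difference, a description of likeness. For APOA1 they were CASTOR1 (0.28), FBLN1 (0.29) and RAB11FIP3 (0.31), and for APOE they were RRAS (0.29), PTH1R (0.36) and SPNS2 (0.38). LRP2 was closest to ME2 (0.28), AGPAT5 (0.28) and ANKRD50 (0.29). The endoderm regulator SOX17 was the closest gene to APOA2 (0.39), followed by MPC2 (0.40) and ZNF133 (0.40). For MTTP the nearest were PRKD3 (0.42), GOLIM4 (0.43) and TMEM65 (0.44), for APOM ISYNA1 (0.44), ZBTB47 (0.53) and ARHGEF10 (0.53), and AMN had RHOC (0.44) and SNX33 (0.45) among its nearest. APOC3 and APOB had no close gene, their nearest being VANGL2 (0.86), DKKL1 (0.89) and CCNJL (0.91) for APOC3, and SPOCK3 (0.92), ZBTB16 (0.95) and the cholesterol-esterifying SOAT2 (1.14) for APOB.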

How the data were processed

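Counts were deposited as reads per NCBI gene identifier without normalization, in 1 table of 13103 genes for the 30 embryos and tables of 11405, 11675 and 12220 genes for Days 8, 10 and 12. The authors made stranded mRNA libraries, trimmed single-end reads with Trim Galore in Galaxy, mapped them to the NCBI pig genome and dropped genes of low CPM. Which aligner, counter and cutoff they used is not given in the sources used here, and the submitters' processing notes name edgeR. All genes reached 0.5 CPM in 4 embryos or more. Embryos of a group differed by more than counting error (chi-square per degree of freedom at least 7.64 over 60 pairs). In the smallest library 3 counts are 0.434 CPM, and such limits cover counting error only.

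Symbols and positions came from the RefSeq gene table of Sscrofa11.1. Counts were TMM-scaled and then tested by edgeR's quasi-likelihood F statistic (robust, Benjamini-Hochberg adjustment over all genes), in 1 fit of 3 day groups (FDR under 0.001 and log2 fold change beyond 1), per day for sex (FDR under 0.05), and in 6 groups for the interaction. The fit was checked on simulated data. Log2 CPM used a prior count of 2. Software was R 4.3.3, edgeR 4.0.16, limma 3.58.1, DESeq2 1.42.0, Python 3.11.15, with matplotlib 3.10.9, scipy 1.17.1, pandas 2.3.3 and numpy 2.4.6.

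The 9 genes and the 13 lists were chosen with earlier results of these data known. Genes named from a list are the called genes with the largest rise and fall, up to 2 each per step, and likeness was ranked among genes with an official symbol, 3 for each, of which 1 is not reported here. HNF4A and DAB2 are named as partners of a pair. COL4A1, KRT8, HBB, VTN, GATA4 and GATA6 were named after their values were seen. Alternatives were the robust GLM, DESeq2, RLE factors, library size alone, 10 counts in 5 embryos, sex as a term, only the 2 days compared, 1 sex, testing for a log2 fold change beyond 1, each embryo left out of the sex tests, 1 fit of 6 groups and a prior count of 0.5. Leaving out d08_m_121 or d12_f_297 from the day fits, and further gene pairs, were chosen after seeing the data.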

Additional observations from a re-analysis of the deposited data

Results flagged for a closer look

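Of 81 groups of values (9 genes in 3 days and 6 day and sex groups), 16 held an embryo far from the others by Dixon's criterion, from 6 distinct embryos. The criterion was applied to CPM and not to log2 CPM, and every flagged embryo was the highest of its group. Its rate of about 1 in 20 groups holds for normally distributed values, so the 16 cannot be set against that rate. The groups of a day contain those of its sexes, so the 16 are not separate events.

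The Day 8 male d08_m_121 stood apart in APOA1 at 1175 CPM, both in the day (other embryos 446 to 683 CPM) and in the males (493 to 625 CPM). It also stood apart in APOE at 250 CPM, in the day and in the males (other males 97.1 to 132.9 CPM), and in MTTP at 32.2 CPM in the males (others 15.2 to 19.9 CPM).

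The Day 12 female d12_f_245, which had the smallest library, stood apart in APOA1 at 6027 CPM in the day (others up to 3345 CPM). Its APOA2 of 163 CPM and its APOE of 2610 CPM stood apart both in the day and in the females, where the others reached 54.3 CPM and 826 CPM.

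The Day 12 female d12_f_297 stood apart in APOB at 24.4 CPM in the day and in the females (others 0 to 5.71 CPM), and in APOC3 at 23.3 CPM in the day (others 0.271 to 9.11 CPM). On Day 10, d10_m_333 stood apart in APOA2 at 44.0 CPM in the day (others 16.6 to 30.4 CPM), d10_f_317 in APOB at 6.22 CPM in the females (others 0.591 to 1.91 CPM), and d10_f_454 in AMN at 4.68 CPM in the females (others 2.18 to 2.89 CPM).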

How the results depend on the processing

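For Day 10 against Day 8, where 1 gene was called, library size alone, females only, males only and testing against a log2 fold change beyond 1 gave 0 and a fit of only the 2 days gave 2 (APOM and APOC3). For Day 12 against Day 10, where 6 were called, females only gave 3, males only 2 and that stricter test 1 (APOE), and the other alternatives gave 4 to 6. For Day 12 against Day 8, where 5 were called, all alternatives gave 4 to 7. The sex comparisons stayed at 0, also with each embryo left out (0 to 0), except for 1 on Day 12 in the fit of 6 groups. Correlations that passed by Pearson's r went from 3 to 1 without the 2 farthest embryos, and 25 of the 27 closest genes were the same with a prior count of 0.5.

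The log2 fold change turned its sign for APOA2 from Day 8 to Day 10 in males only (0.075) and without d08_m_121 (0.021, with -0.080 without d12_f_245), for APOB from Day 10 to Day 12 with the robust GLM (-0.18), in males only (-0.62) and without d12_f_297 (-0.33, with 0.83 without d12_f_245), for APOM in that step in males only (-0.023), and for the sex difference of APOA1 on Day 8 with the robust GLM (0.052) and without d08_m_121 (0.092, with other embryos left out down to -0.29). None of these was called in either form. Of the single-gene values between days, 292 kept direction and call, 27 lost and 8 gained a call. Fits of 1 sex hold fewer embryos, and the cause of the other changes was not tested. Library size alone moved the median of all genes by 0.20 from Day 10 to Day 12.

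APOB, AMN and APOM lie near the limit of depth, where 1 embryo can set a value. Correlations of LRP2 or AMN with CUBN were not run, as CUBN was not analysed here. No paired analysis was possible because the labels give the embryos no shared replicate numbers.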
